A study of Drosophila melanogaster with 2 samples.

Results

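The 10 genes described here encode the core of the Drosophila melanogaster centromere and kinetochore: cid, cal1, Cenp-C, Mis12, Nnf1a, Nnf1b, Spc105R, Ndc80, Nuf2 and Spc25. They were chosen by name, with earlier results of these data known. All 10 were found in the Ensembl release 115 annotation among 13945 protein-coding genes on the main chromosome arms. Occupancy of Dp, the partner with which E2F transcription factors contact DNA, was measured by ChIP-seq. The single group was whole embryos aged 0 to 24 h, males and females pooled, from a transgenic line that carries Dp with GFP at its carboxyl end. It had 2 biological replicates, numbered 1 and 3. The promoter that drives the fusion is not given in the labels, and there was no second genotype, so no value here is a contrast between conditions. A line in the labels describes both libraries as input control although Dp is given as the antibody target, and that conflict was not resolved. Whole embryos mix many cell types, and more cells with Dp at a gene cannot be told apart from more Dp per cell.

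Kinetochores are the protein plates that tie chromosomes to spindle microtubules during cell division. They are built on centromeric nucleosomes that hold the histone variant Cid, through Cenp-C, the Mis12 complex, Spc105R and the Ndc80 complex. E2F and Dp dimers act at promoters of genes used by dividing cells, as activators or as part of the repressive DREAM complex. In the embryo, division is general at first and later limited to fewer lineages.

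A summit, the highest point of a deposited peak, lay close to the start of each of the 10 genes, so the letters just before the start show the sequence around it. The 5 stretches below are from the dm6 reference, read 5′ to 3′ in the direction of the gene, and each ends 1 base before the annotated start. They leave out annotated untranslated sequence. Capitals mark matches to the E2F site TTTGGCGC, to the CHR element TTTGAA or to the DRE TATCGATA and its part CGATA, on either strand (TATCG is CGATA read on the other strand); Myb sites are not marked. The first is shown because cal1 had the strongest peak and an E2F match near each of its summits (chr3R:17087990-17088279, plus strand). Spc105R carried a CHR and a CGATA match (chr3L:20800290-20800409, plus strand), Spc25 carried a complete DRE (chr3R:12961644-12961744, plus strand), and Ndc80 is shown because its strong summit lay in the 68 bases between its start and that of BthD (chrX:13612063-13612130, minus strand). These 68 bases hold none of the matches, but CGATA matches lay just after the start of Ndc80, 22 and 33 bp from the summit, outside the stretch. Nnf1b had the weakest peak, and its stretch holds none of them either (chr2L:810457-810576, plus strand).
cal1: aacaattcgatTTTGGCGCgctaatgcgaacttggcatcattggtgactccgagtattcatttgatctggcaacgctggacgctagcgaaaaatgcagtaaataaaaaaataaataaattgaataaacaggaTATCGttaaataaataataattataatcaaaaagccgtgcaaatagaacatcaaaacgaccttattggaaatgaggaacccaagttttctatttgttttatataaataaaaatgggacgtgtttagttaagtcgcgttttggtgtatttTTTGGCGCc
Spc105R: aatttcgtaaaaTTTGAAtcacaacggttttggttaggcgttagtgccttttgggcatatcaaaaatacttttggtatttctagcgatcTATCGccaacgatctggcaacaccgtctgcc
Ndc80: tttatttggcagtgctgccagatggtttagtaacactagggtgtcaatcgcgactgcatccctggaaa
Spc25: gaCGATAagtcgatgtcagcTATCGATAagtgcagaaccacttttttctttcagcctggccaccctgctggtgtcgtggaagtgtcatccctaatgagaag
Nnf1b: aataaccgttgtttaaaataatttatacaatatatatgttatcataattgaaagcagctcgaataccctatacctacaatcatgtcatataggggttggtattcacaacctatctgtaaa

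Dp was found at the start of all 10 genes. A gene was counted as bound when a summit of the thresholded list, the peaks that the authors kept as reproducible between replicates, lay within 500 bp of an annotated start. That held for 10 of 10 centromere and kinetochore genes and for 42.2% of all protein-coding genes (5891 of 13945). Relaxed peaks of both replicates were at the starts of all 10 as well, against 56.3% of all protein-coding genes. The signal value, on the authors' scale and without a stated unit, had a median of 1786 over the 10 genes and 736 over all bound genes, a ratio of 2.43. It spanned 15.9-fold, with cal1 at 5323 and Nnf1b at 336. No test was made of these differences, since the design has 1 group.

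**Figure D1:**
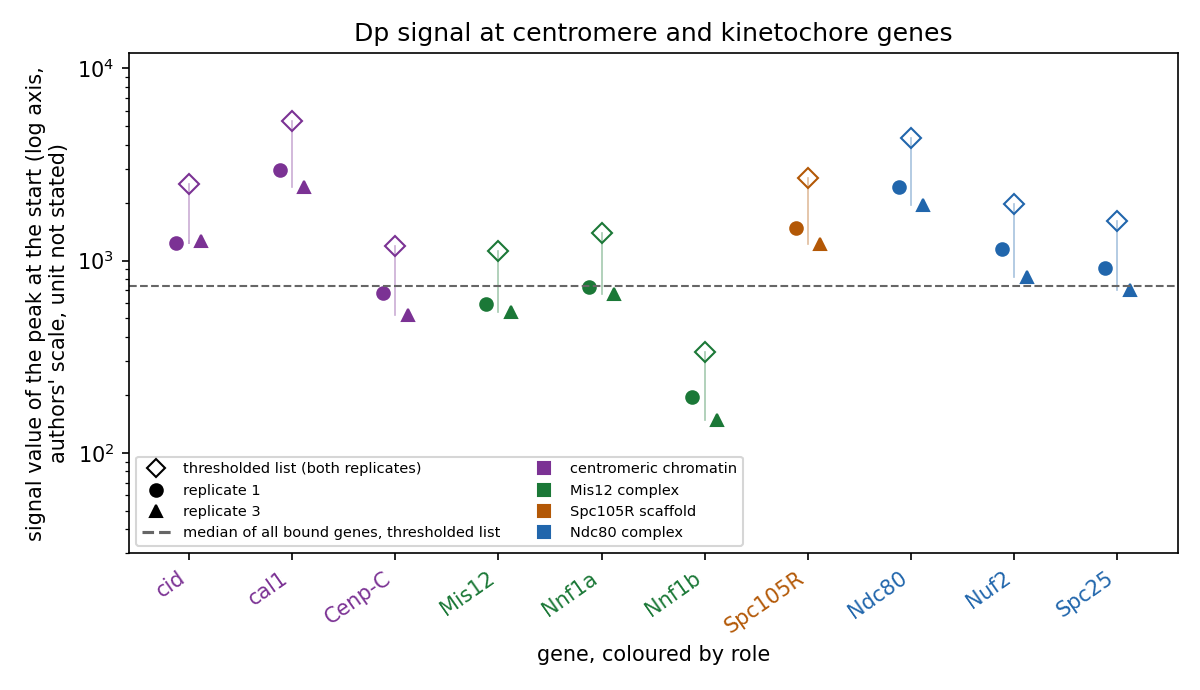
Signal value of the strongest peak at the start of each gene (log axis, authors' scale), in the thresholded list made from both replicates (open diamonds), in replicate 1 (circles) and in replicate 3 (triangles), with genes coloured by role. The dashed line is the thresholded-list median of all bound genes, 736: 9 of the 10 diamonds lie above it and that of Nnf1b, at 336, below. Replicate lists have their own scale, so their points are compared with each other and not with the line.

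Among the genes of centromeric chromatin, cal1 stood highest. Cal1 is the chaperone that loads Cid into centromeres. Its peak, on arm 3R from 17087649 to 17088643, had a signal value of 2942 in replicate 1, 2403 in replicate 3 and 5323 in the thresholded list, where it ranked 179 of 5828 peaks. The interval held a second summit with a value of 4002, at rank 449. That summit lay 2 bp before the start and the stronger one 224 bp before it. Both summits were found in each replicate. The gene cid encodes the Cid histone itself, the fly counterpart of CENP-A, and its peak on arm 2R from 13485164 to 13486023 had values of 1236 in replicate 1 and 1269 in replicate 3. In the thresholded list it stood at 2494, rank 945, with the summit 16 bp before the start. Cenp-C, the protein that binds Cid nucleosomes and carries the kinetochore, had the lowest value of these 3 genes, with 674 in replicate 1, 519 in replicate 3 and 1192 in the thresholded list, rank 1798. Its peak ran from 8563682 to 8564351 on arm 3R. The signal at cal1 was 2.13 times that at cid, by 2.38-fold in replicate 1 and 1.89-fold in replicate 3.

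The Mis12 complex, which joins Cenp-C to the outer kinetochore, had 3 genes of moderate to low signal, between 336 and 1384. Mis12 had 597 in replicate 1, 539 in replicate 3 and 1120 in the thresholded list, rank 1883, in a peak on 3L from 6968787 to 6969340. A second summit 225 bp before its start had a value of 551. Nnf1a and Nnf1b are paralogous subunits of the complex, and their signals differed. Nnf1a, on 2R with a peak from 20586892 to 20587751, had 727 in replicate 1, 671 in replicate 3 and 1384 in the thresholded list, rank 1614. Nnf1b, on 2L with a peak of 319 bp from 810401 to 810719, had 196 in replicate 1, 148 in replicate 3 and 336 in the thresholded list, rank 4548. The signal at Nnf1a was thus 4.12 times that at Nnf1b, and it was 3.71-fold higher in replicate 1 and 4.55-fold higher in replicate 3.

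Spc105R is the large scaffold on which checkpoint proteins gather, and its peak on 3L from 20800071 to 20800783 was close in signal to that of cid. It had a signal value of 1482 in replicate 1, 1222 in replicate 3 and 2691 in the thresholded list, rank 874. The Ndc80 complex makes the contact with microtubules. The gene Ndc80, on the X with a peak from 13611656 to 13612476, had 2423 in replicate 1, 1935 in replicate 3 and 4343 in the thresholded list, rank 365. Nuf2, the partner of Ndc80 in the microtubule-binding end of the complex, had 1142 in replicate 1, 823 in replicate 3 and 1959 in the thresholded list, rank 1212, in a peak on 2L from 7065520 to 7066156. Spc25, also known as mitch, which ties the complex to the rest of the kinetochore, had 916 in replicate 1, 705 in replicate 3 and 1613 in the thresholded list, rank 1443, in a peak on 3R from 12961395 to 12962033. Peaks at the subunits of 1 complex carried unequal signals, with Ndc80 at 2.22 times Nuf2 and 2.69 times Spc25. The summit at Ndc80 was also 50 bp from the start of BthD, and that at Spc25 119 bp from the start of grsm. These values may therefore not belong to the subunit genes alone. Nuf2 was 1.21 times Spc25, by 1.25-fold in replicate 1 and 1.17-fold in replicate 3.

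The replicates placed the genes in nearly the same order. The log2 ratio of replicate 3 to replicate 1 at the main summits had a median of -0.31 over the 10 genes and a range of -0.47 at Nuf2 to 0.04 at cid, while over 5762 thresholded peaks matched in both replicates its median was -0.18 and its standard deviation 0.46, or 1.37-fold. Of the 10 genes, 9 were lower in replicate 3, as were 4228 of the 5762 peaks. By thresholded signal the order was cal1, Ndc80, Spc105R, cid, Nuf2, Spc25, Nnf1a, Cenp-C, Mis12 and Nnf1b. It changed in replicate 3 only for Spc105R and cid, which exchanged places 3 and 4, and for Cenp-C and Mis12, which exchanged places 8 and 9, and it was the same in replicate 1. Neighbours in that order differed by more than 1.37-fold at 2 steps alone: Ndc80 was 1.61 times Spc105R, and Mis12 was 3.33 times Nnf1b. At the other 7 steps the ratio lay between 1.06 and 1.27, within that spread over all peaks. That spread describes a single peak between the replicates and is not the error of a ratio between genes. The spread over the 10 genes themselves was narrower, with a standard deviation of 0.16 on the log2 scale, or 1.11-fold. By that measure cal1 over Ndc80, at 1.21-fold in replicate 1 and 1.24-fold in replicate 3, and Nuf2 over Spc25, at 1.25-fold and 1.17-fold, exceeded it in both replicates. The steps from cid to Nuf2 and from Nnf1a to Cenp-C exceeded it in replicate 3 alone, at 1.54-fold and 1.29-fold. Each was 1.08-fold in replicate 1. The step from Spc25 to Nnf1a exceeded it in replicate 1 alone, at 1.26-fold against 1.05-fold in replicate 3. Spc105R and cid, and Cenp-C and Mis12, had ratios on opposite sides of 1 in the replicates.

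Most of the genes lay in the upper part of the bound genes, but only cal1 and Ndc80 near the top. By thresholded signal cal1 exceeded 97.0% of all bound genes, Ndc80 93.5%, Spc105R 84.0% and cid 82.5%. Nuf2 exceeded 77.3%, Spc25 72.7%, Nnf1a 69.6%, Cenp-C 65.9% and Mis12 64.3%. Nnf1b exceeded 14.9%. The main summits of 9 of the 10 genes were among the 2914 strongest thresholded peaks, against 56.5% of those of all bound genes, and Nnf1b was the exception.

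**Figure D2:**
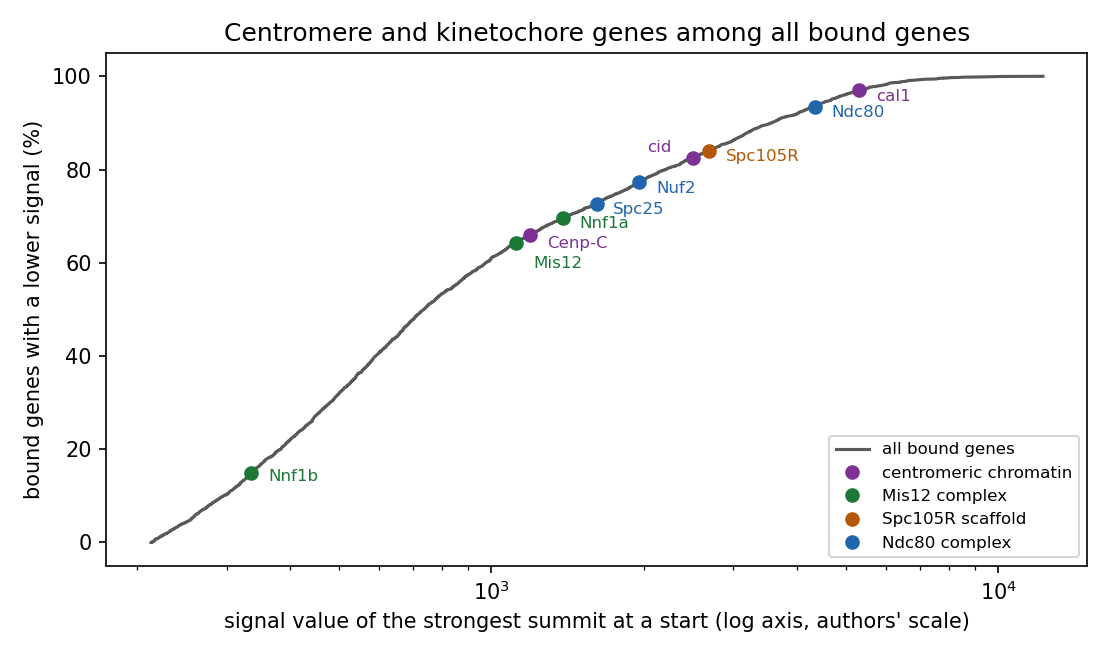
Share of all 5891 bound protein-coding genes with a lower signal value (vertical axis, %) against the signal value of the strongest summit at a start (log axis, authors' scale). The line is all bound genes and the points are the 10 centromere and kinetochore genes coloured by role. Of these, 9 lie between 64.3% and 97.0%, and Nnf1b lies at 14.9%.

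Summits sat close to the starts. The main summit was within 50 bp of the start for 9 of the 10 genes, all but cal1, where 37.8% of bound genes had theirs that close. The median distance was 23.0 bp for the 10 genes and 69.0 bp for all bound genes. In 8 of those 9 genes the summit lay before the start, by 13 bp at Spc105R up to 39 bp at Nnf1a and Nuf2. At Spc25 it lay 17 bp after the start, in the 5′ untranslated region, which is also within an intron of the oppositely oriented gene grsm. The other 9 main summits lay outside every annotated protein-coding gene. Each of the 10 genes has a single annotated start, so no choice among starts was involved. Summits of the separate replicates fell within 50 bp of the start at 8 genes in both replicates. At cid the summit of replicate 3 was 55 bp before the start, and at cal1 those of replicates 1 and 3 were 226 and 216 bp before it.

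Some of these summits were also near other genes. The main summit also lay within 500 bp of another protein-coding start at 4 of the 10 genes, against 58.5% of bound genes. The neighbours were cbc, 210 bp from the summit of cid, HnRNP-K, which encodes an RNA-binding protein, 274 bp from that of Nnf1a, BthD, 50 bp from that of Ndc80, and grsm, 119 bp from that of Spc25. The summits were nearer to the start of the centromere or kinetochore gene in each of the 4. At Nnf1a a second summit with a value of 885 lay 60 bp from the start of HnRNP-K, nearer to it than to Nnf1a. The summit of Ndc80, 19 bp from its own start and 50 bp from that of BthD, cannot be assigned to either gene alone. The peaks of cal1, Cenp-C, Mis12, Nnf1b, Spc105R and Nuf2 had no other protein-coding start within 500 bp of the main summit.

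**Figure D3:**
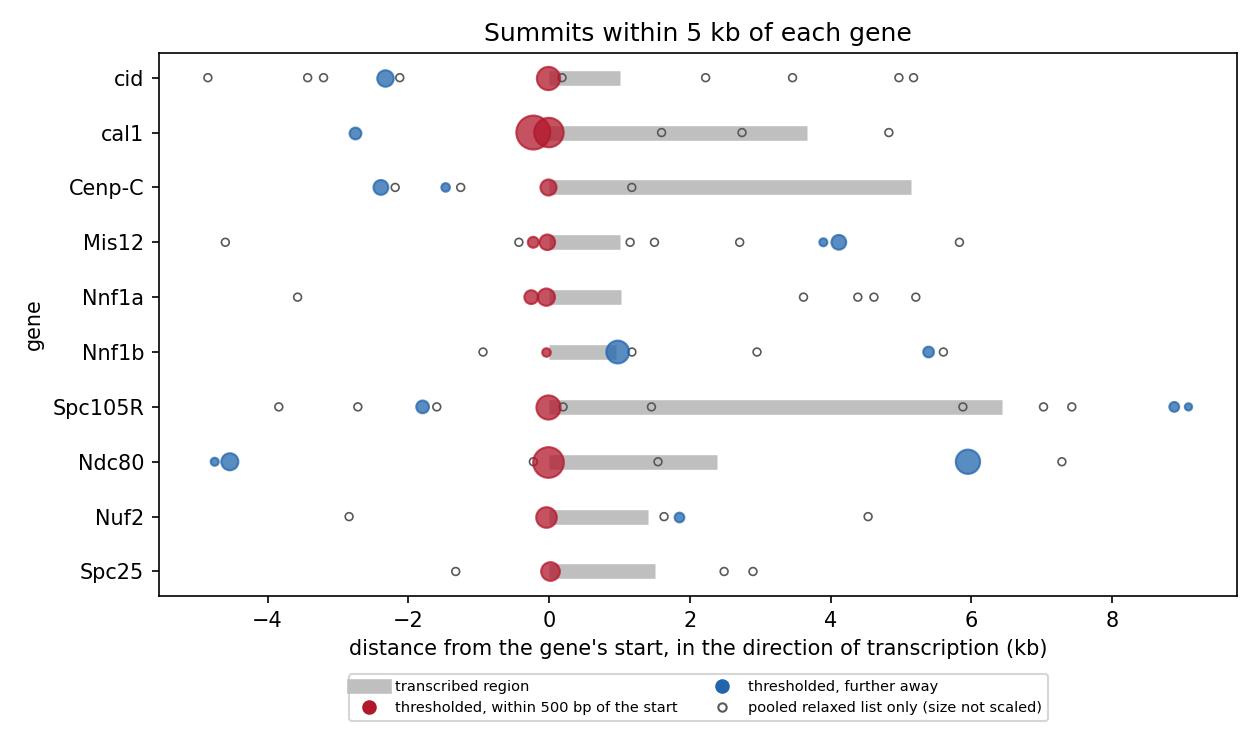
Summits from 5 kb upstream to 5 kb downstream of each gene, against distance from its start in the direction of transcription (kb). Red points are thresholded summits within 500 bp of the start and blue points those further away, with area in proportion to signal value; small open circles are summits of the pooled relaxed list alone, not scaled, and grey bars are the transcribed regions. No blue point is centred within a grey bar; the large one at Nnf1b, with a value of 2405, is centred just past the end of the gene.

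Within 5 kb of the 10 genes, thresholded summits away from the genes' own starts lay at the starts of neighbours. There were 13 at the genes' own starts and 15 further away. None of the 15 lay inside 1 of the 10 genes, and all 15 were within 500 bp of the start of another protein-coding gene, where 87.6% of all thresholded summits are near such a start. Their signal values ran from 243 to 2723 with a median of 640. The largest was at CG11178, downstream of Ndc80. The next, at 2405, lay 31 bp from the start of Dbp21E2, which encodes an RNA helicase, and 976 bp from the start of Nnf1b, just past the 3′ end of that gene. This neighbouring peak was larger than the 336 at the start of Nnf1b itself, so a distance limit of 1000 bp would give Nnf1b the value of Dbp21E2. Other nearby summits were 3 bp from GckIII, upstream of cal1, at 640, 49 bp from pch2, upstream of Cenp-C, at 1016, and 11 bp from Sem1, downstream of Nuf2, at 435. Nnf1a and Spc25 had no thresholded summit but those at their starts. The pooled relaxed list added 43 summits away from the starts, 6 of them inside the genes, with values of 26.6 to 161 and a median of 37.6. The 10 main values at the starts were above that range, as is every thresholded value, since the lowest of them is 213.

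Matches to E2F sites were few. The core was searched as TTCCCGC or TTCGCGC or TTGCCGC or TTGGCGC on both strands, within 100 bp of a summit. It was present at the main summits of 2 of the 10 genes, cid and cal1, against 18.2% of the main summits of all bound genes and 11.3% of 19252 windows of the same length at annotated starts. At cal1 the match was part of a longer form, TTTGGCGC, which contains the core, on the strand of the gene, centred 51.5 bp before the stronger summit. The second summit of cal1 had the same 8 letters, on the same strand, centred 3.5 bp before it and ending 2 bp before the start. Both are the capitals TTTGGCGC of the cal1 stretch printed above. At cid the core lay 46 bp after the summit and 27 bp after the start, on the opposite strand. Ndc80, second in signal, had no E2F match within 100 bp of its summit.

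CHR elements, searched as TTTGAA or TTCGAA, are sites of MuvB complexes at cell cycle promoters. They were near the main summits of 5 of the 10 genes, cid, cal1, Nnf1a, Spc105R and Nuf2, against 48.5% of those of bound genes and 32.0% of start windows. Mis12 had none at its main summit and 2 at the second. The complete DRE, TATCGATA, which is the site of DREF, was near the main summit of Spc25 alone, against 17.5% of bound genes and 6.45% of start windows. That DRE was centred 94.5 bp before the summit, near the edge of the window. The start of grsm lay 119 bp from the same summit, on the same side. Its part CGATA, which overlaps every DRE match, was found at 6 of the 10 genes, cid, cal1, Nnf1a, Spc105R, Ndc80 and Spc25, against 57.6% of bound genes and 37.1% of start windows. Myb sites, searched as TAACGG or TAACTG or CAACGG or CAACTG, were also at 6 of the 10, against 32.4% of bound genes and 35.4% of start windows. For the E2F core, CHR, DRE and CGATA the counts among 10 genes stood close to the share of bound genes. Cenp-C had no match to any of these at its summit, and the main summits of Nnf1b and Mis12 had a Myb site only. A complete DRE also lay near the second summit of Nnf1a. Presence of these letters is not evidence of binding by the factors named, and absence from a window of 201 bp says nothing of sites outside it.

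**Figure D4:**
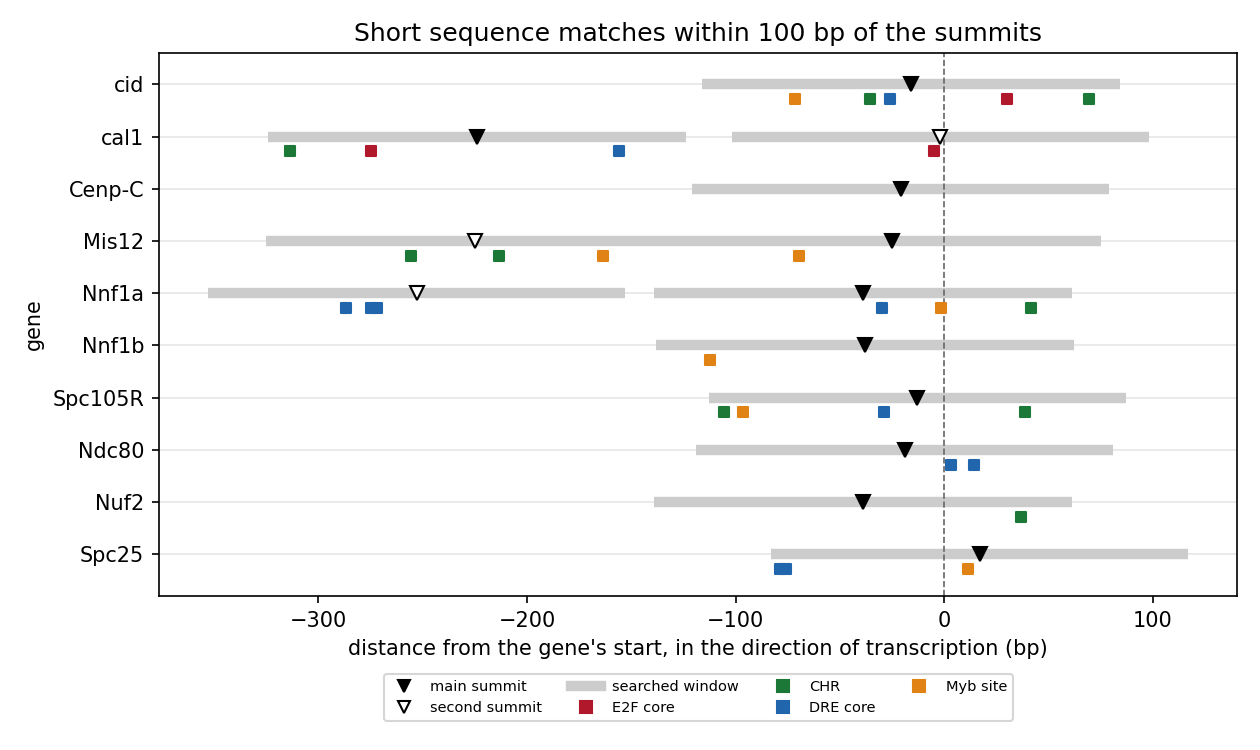
Positions of short sequence matches (squares) within 100 bp of the thresholded summits (triangles, filled for the main and open for a second summit), against distance from the start in the direction of transcription (bp). Grey bars are the windows searched, and the dashed line is the start. E2F cores appear at cid and at both summits of cal1, and Cenp-C has no square.

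The wider set of kinetochore and centromere genes was bound almost as fully. Of 30 listed genes that act with the 10, 29 had a thresholded summit at a start, against 42.2% of all protein-coding genes, and their median signal was 1742. These 30 were listed by known role, with earlier results of these data known. All 12 genes of the fibrous corona and the spindle checkpoint were bound, with a median of 1900, and all 8 of the inner centromere and microtubule attachment, with a median of 2064. With each summit given to its nearest start only, 24 of the 30 stayed bound. Zw10, Mad1 and Bub3 of the corona and checkpoint were then lost, as were Nlp and Hmr, partners of Cid chromatin. Kmn1, a further subunit of the Mis12 complex, had 564. Of 9 partners of Cid chromatin, 8 were bound, and their median of 724 was close to the 736 of all bound genes. The highest values in the 30 were 10090 for mad2, a checkpoint protein, 5786 for borr, which encodes Borealin, and 4003 for Zwilch, of the corona. Ppa, an F-box protein that targets Cid for degradation, was the gene without a summit: the nearest thresholded one was 12047 bp from its start, and a relaxed pooled peak at the start had a value of 164, below the lowest thresholded value of 213. The E2F core was near the main summit of 1 of the 29 bound genes, Incenp, against 18.2% of all bound genes. CHR was near those of 15 of the 29, against 48.5% of all bound genes, so neither count stood above that share by much.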

How the data were processed

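Per the descriptions deposited with the files, the authors called relaxed peaks on each replicate and on both pooled, against 1 shared control alignment on dm6, and derived the thresholded list from these by irreproducible discovery rate. Names and versions of the aligner and caller: not given in the sources used here. Read depth is unknown. The signal value, the summit offset and the −log10 q of each peak are as deposited by the authors; the last was a constant 4.30 over the 5828 thresholded peaks and ranks nothing. Sequence was read from the RefSeq dm6 genome, whose arm lengths hold every peak. Starts are those of all annotated transcripts; coordinates count from 1. A gene's value is that of its strongest thresholded summit within 500 bp of a start, its main summit. Replicate values are those of the relaxed summit nearest to it, within 200 bp. The labels call the replicates biological but do not say whether the embryos were collected separately, so their spread may be technical. 

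The members, the 30 related genes and the motifs were chosen with earlier results of these data known. All 10 members are named, with the 3 strongest and any unbound gene of the 30, and the genes sharing a main summit. Other neighbours and other genes of the 30 were named after their values were seen. No test was run, as planned. Functions were checked on planted data. Python 3.11.15, numpy 2.4.6, pandas 2.3.3 and matplotlib 3.10.9 were used.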

Additional observations from a re-analysis of the deposited data

How the results depend on the processing

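Of 35 alternative values of the main results, 30 kept their size, meaning within 1.5-fold of the main value. By that rule 21 related genes bound, against 29, counted as the same. All 10 genes stayed bound with a limit of 250 or 1000 bp, where 37.7% and 45.3% of all protein-coding genes were bound. They also did with the relaxed pooled list (60.3% of all) and with each summit given to its nearest start only (32.9%). The same held without replicate 1 (40.4%) and without replicate 3 (42.4%). With the 2914 strongest peaks 9 stayed bound, against 23.9% of all, and Nnf1b was lost. All 10 kept a peak of both replicates in the 3 alternatives tried. Of the 30 related genes, 21 were bound with the 2914 strongest peaks and 30 with the relaxed list, against 23.9% and 60.3% of all genes. With each summit given to its nearest start only, 24 were bound, against 32.9%. There were 28 without replicate 1, where Klp10A was lost as well as Ppa, and 29 without replicate 3. The ratio of the median signal to that of all bound genes, 2.43, was 1.27 with the 2914 strongest peaks and 3.85 with the relaxed list, which remove or add weak genes to the comparison by construction; it was 2.08 without replicate 1 and 2.61 without replicate 3. With 50 bp to either side of the summit 1 gene had an E2F core and 1 a CHR, cid in both. With 250 bp 3 had an E2F core and 8 a CHR. The shares of all bound genes were not counted at these window sizes, and a longer window can only keep or add matches. These counts were therefore not compared with those of other bound genes. With the main window, 2 genes had an E2F core and 5 a CHR at the summits of either replicate, the same as in the main result. In the main result 18.2% of bound genes had an E2F core and 48.5% a CHR. No paired analysis was possible because there was 1 group. With 2 replicates and no read counts, the error of a single gene's value rests on the spread between them.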

Other observations

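The positions of some short matches repeated among the genes. This was seen in the data first and was not tested. A CHR element began 30 to 70 bp after the start in 4 of the 10 genes, at 67 bp in cid, 39 bp in Nnf1a, 36 bp in Spc105R and 34 bp in Nuf2, against 7.34% of 5749 starts of bound genes and 7.65% of 19253 starts of protein-coding genes. Among the 29 bound related genes 4 had one there. A CGATA match began 25 to 35 bp before the start in 3 of the 10 genes, cid, Nnf1a and Spc105R, on the strand opposite to the gene in each, against 11.8% of starts of bound genes and 5.34% of all. Of the 29 related genes 7 had one there.

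The deposited signal values were close to additive. Over 5762 thresholded peaks matched in both replicates, the thresholded value divided by the sum of the replicate values had a median of 0.995, with 0.940 and 1.04 at the 5th and 95th percentiles. Over the 10 centromere and kinetochore genes the median was 0.996. In the relaxed lists most peaks had 1 fixed width, 530 bp for 75.9% of the pooled list, 516 bp for 78.6% of replicate 1 and 564 bp for 77.6% of replicate 3. In the thresholded list 2.8% were 530 bp wide. None of the 10 main peaks had that width.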
